A study of Homo sapiens with 12 samples.

Results

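Naive-only regions of 40 kb or more are stretches of chromosomes 1 to 22 that were called as nucleolus-associated in naive human embryonic stem cells and did not share a single base with any region called in primed cells. They were chosen by length and by both deposited lists, so their number, their length and their lack of primed sequence describe the choice and are not results. There were 1041 of them among the 58225 naive regions of these chromosomes, and they made up 18.2% of the 5728 naive regions of 40 kb or more. The other 4687 long naive regions shared sequence with the primed list and serve here as the closest comparison, beside 1053 primed-only regions of 30 kb or more and all sequence without a primed region.

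The cells were H9, an established human embryonic stem cell line, and received no treatment. DNA was sequenced from 4 groups of 3 libraries each: nucleolar DNA of naive cells grown in RSeT, whole-cell DNA of the same naive state, nucleolar DNA of primed cells grown in mTeSR, and whole-cell DNA of the primed state. Nucleoli were pelleted from crosslinked, sonicated cells in a buffer rich in magnesium and then in one poor in it, and libraries were made without PCR. Each state is represented by 1 list of region limits on hg38, with no score, depth or replicate, so the values below carry no spread between cultures, and the states could not be set against each other by a test. A region missing from the primed list is only a region that was not called there.

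The nucleolus is the compartment in which ribosomal RNA is transcribed and ribosomes are assembled. Chromosomal DNA that gathers at its surface, in nucleolus-associated domains, is as a rule late replicating, poor in genes and low in transcription, and much of it can move between the nucleolar surface and the nuclear lamina. Naive and primed cells are both pluripotent; naive cells are held to resemble the embryo's epiblast before implantation and primed cells the epiblast after it.

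Of the 18973 coding genes analysed, 32 (0.169%) lay wholly inside a naive-only region. The promoters of 5 of them are shown, as gene starts that lay in naive-only sequence together with the whole gene; they are those in the longest regions among the genes that have a promoter entry, which LOC124901178, MUC15 and TWIST1, in regions as long or longer, do not. SLC17A4 encodes a membrane transporter of the phosphate transporter family, and its promoter lies at chr6:25754449-25754748 on the plus strand. FAM110C, whose product has been linked to microtubules, starts at chr2:46456-46755 on the minus strand. P2RY13 encodes a purine receptor that responds to ADP (chr3:151329500-151329799, minus strand). CRISP3 encodes a secreted cysteine-rich protein (chr6:49744339-49744638, minus strand). SPX encodes the peptide hormone spexin (chr12:21527702-21528001, plus strand). The sequences are from RefSeq on GRCh38.p14 and run 5′ to 3′ on the strand of the gene, from 250 bases before the start to 50 bases after it. Capitals mark GGGCGG and its reverse complement CCGCCC, the GC box; TATAAA and its reverse complement TTTATA were searched in the same way.
SLC17A4: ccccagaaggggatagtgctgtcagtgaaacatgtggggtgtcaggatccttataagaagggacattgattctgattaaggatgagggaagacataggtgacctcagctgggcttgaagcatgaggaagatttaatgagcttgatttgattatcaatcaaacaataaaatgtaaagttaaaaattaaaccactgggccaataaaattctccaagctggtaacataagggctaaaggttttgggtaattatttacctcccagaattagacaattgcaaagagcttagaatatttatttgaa
FAM110C: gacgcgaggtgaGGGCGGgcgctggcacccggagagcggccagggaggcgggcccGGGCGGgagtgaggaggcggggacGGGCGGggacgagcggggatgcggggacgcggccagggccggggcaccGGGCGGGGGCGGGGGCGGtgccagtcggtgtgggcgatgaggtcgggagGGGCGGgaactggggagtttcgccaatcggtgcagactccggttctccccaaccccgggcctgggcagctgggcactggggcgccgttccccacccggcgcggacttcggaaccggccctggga
P2RY13: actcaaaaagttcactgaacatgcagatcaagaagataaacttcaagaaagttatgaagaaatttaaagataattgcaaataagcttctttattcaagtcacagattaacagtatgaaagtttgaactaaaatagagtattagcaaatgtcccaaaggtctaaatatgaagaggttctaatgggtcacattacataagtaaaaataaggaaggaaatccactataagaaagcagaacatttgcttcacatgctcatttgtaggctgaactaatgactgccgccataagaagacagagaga
CRISP3: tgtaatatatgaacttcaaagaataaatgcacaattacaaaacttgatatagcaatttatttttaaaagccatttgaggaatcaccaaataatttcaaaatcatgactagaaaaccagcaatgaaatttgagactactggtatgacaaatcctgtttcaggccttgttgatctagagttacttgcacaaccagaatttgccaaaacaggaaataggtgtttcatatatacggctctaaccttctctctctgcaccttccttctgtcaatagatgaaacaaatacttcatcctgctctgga
SPX: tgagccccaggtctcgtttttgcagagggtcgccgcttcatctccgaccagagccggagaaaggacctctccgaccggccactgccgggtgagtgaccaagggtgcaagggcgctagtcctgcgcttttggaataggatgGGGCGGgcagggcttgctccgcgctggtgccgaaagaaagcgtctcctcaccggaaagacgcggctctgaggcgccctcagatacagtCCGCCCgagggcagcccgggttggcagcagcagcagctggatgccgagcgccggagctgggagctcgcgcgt
The promoters of FAM110C and SPX held GC boxes and had a GC content of 78.0% and 66.3%. Those of SLC17A4, P2RY13 and CRISP3 held neither motif and had a GC content of 37.7%, 32.7% and 34.0%, so 2 of the 5 were rich in G and C and 3 were rich in A and T.

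Over all 147 coding promoter windows that lay inside naive-only regions (107 genes), the median GC content was 58.0%, against 60.7% in long naive regions that shared sequence with the primed list, 65.7% in primed-only regions, 59.7% in primed-free stretches and 62.7% in all coding promoters. A GC box stood in 45.6% of the naive-only windows, against 50.4% in sharing regions, 65.2% in primed-only regions, 50.7% in primed-free stretches and 56.6% in all. TATAAA on either strand stood in 13.6% of the naive-only windows, against 12.1%, 6.13%, 11.1% and 9.51% in the same 4 comparison sets. The promoters inside naive-only regions were therefore closer in composition to those of primed-free sequence and of sharing regions than to those of primed-only regions. Primed-free stretches include the naive-only regions. These are descriptions of letters in a window and not of binding.

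Of 1793 microRNA genes, 8 lay wholly inside naive-only regions, or 0.162 per Mb, against 0.556 per Mb in sharing regions, 0.9501 per Mb in primed-only regions, 0.389 per Mb in primed-free stretches and 0.650 per Mb overall. The mature microRNAs inside naive-only regions for which a sequence was given are shown 5′ to 3′ with the seed, bases 2 to 8, in capitals, since the seed decides which transcripts a microRNA pairs with.
hsa-miR-3919: gCAGAGAAcaaaggacucagu
hsa-miR-548ag: aAAGGUAAuugugguuucugc
hsa-miR-8066: cAAUGUGAucuuuuggaugua
hsa-miR-3666: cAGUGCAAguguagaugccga
hsa-miR-1265: cAGGAUGUggucaaguguuguu
hsa-miR-4483: gGGGUGGUcuguuguug
No 2 of these seeds are the same. The gene of hsa-miR-3666 lies within FOXP2, which encodes a forkhead transcription factor, and that of hsa-miR-4483 within PLEKHS1, a coding gene that lay wholly inside a naive-only region. The genes of hsa-miR-8066 and hsa-miR-3919 also lie within coding genes touched by naive-only regions.

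Naive-only regions were short. Of the 1041, 610 (58.6%) were exactly 40 kb, the shortest length admitted, 243 were 50 kb and 17 were 90 kb or more. Their mean length was 47.4 kb and together they covered 49.38 Mb, which was 4.53% of all naive sequence on these chromosomes. Sharing regions had a mean length of 58.7 kb and covered 275.0 Mb. The longer a naive region, the less often it was free of primed sequence: the naive-only share was 59.0% among regions of 10 kb, 32.2% at 30 kb, 23.9% at 40 kb, 15.3% at 60 kb and 1.55% at 100 kb or more, where 6 of 386 remained. A longer region has more bases with which to meet a primed region, so length alone moves this share. Just outside the length limit lay 1764 naive-only regions of 30 kb, and just outside the sharing limit lay 497 long naive regions that met the primed list in a single 10 kb bin. At the other end, 2733 of the sharing regions lay wholly inside primed regions.

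Chromosome 13 held the most naive-only regions, 116, followed by chromosome 4 with 104, chromosome 5 with 95, chromosome 3 with 84 and chromosome 8 with 83. None lay on chromosomes 19, 20, 21 or 22, where primed regions covered 97.3%, 94.5%, 92.1% and 91.4% of the sequence and left 0.51, 0.69, 2.72 and 0.84 Mb of primed-free stretches of at least 40 kb. Since a naive-only region can lie only in primed-free sequence, each chromosome's regions are also given as a share of its primed-free stretches. Naive-only regions of 40 kb or more filled 4.0% of the 1234.11 Mb of such stretches, while naive regions of any length filled 32.0%. On chromosome 13 they filled 9.65%, on chromosome 18 9.12% and on chromosome 14 7.42%. At the low end they filled 2.28% of the primed-free stretches of chromosome 1, 2.57% on chromosome 2 and 2.94% on chromosome 6. Chromosome 4, second by count, stood at 3.45%, below the autosomal value. Chromosomes 15 and 16 held 5 and 1 regions and filled 1.65% and 1.04% of what was free there. These shares mix naive coverage with the length of naive regions, and naive coverage of any length was likewise highest on chromosomes 18 (46.4%) and 13 (42.2%) and lowest among the first 18 chromosomes on chromosome 1 (27.0%).

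**Figure D1:**
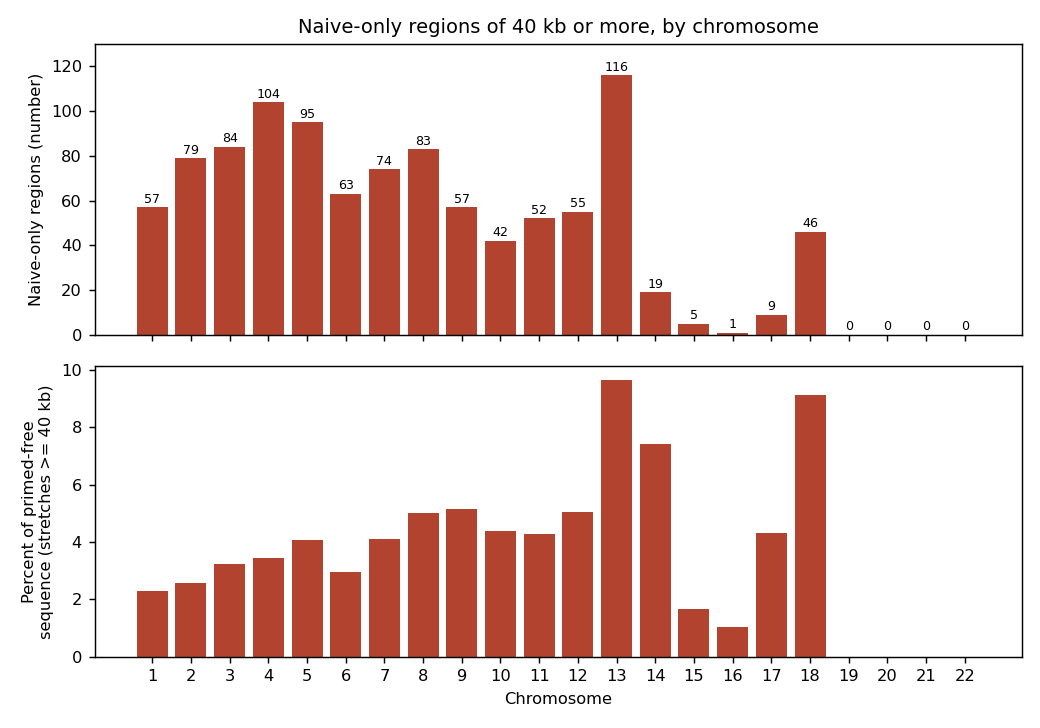
Naive-only regions of 40 kb or more on chromosomes 1 to 22 (horizontal axis), as a number of regions (upper bars) and as a percent of the primed-free stretches of 40 kb or more on that chromosome (lower bars). Chromosome 13 is highest in both, at 116 regions and 9.65%, chromosome 4 has 104 regions but 3.45%, and chromosomes 19 to 22 hold 0.

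Naive-only regions were unevenly spread. Of 587 windows of 5 Mb, 281 held at least 1, and the 75 windows with 5 or more held 613 of the regions (58.9%). The fullest was chr18:65000001-70000000, with 22 naive-only regions of 1210 kb in all; naive regions of any length covered 55% of it and primed regions 2.4%. This window holds 7 coding genes, among them the cadherin genes CDH7 and CDH19. Next came chr5:25000001-30000000 with 19 regions and 930 kb, around the cadherin gene CDH9. On chromosome 13, the adjoining windows 55000001 to 60000000, 60000001 to 65000000 and 65000001 to 70000000 held 17, 16 and 17 regions, with primed coverage of 3%, 4% and 1%. They hold 7, 5 and 2 coding genes, among them the protocadherins PCDH17, PCDH20 and PCDH9. The window chr12:80000001-85000000 held 15 regions, and none of its 11 coding genes is a cadherin or protocadherin. After it, the window chr4:30000001-35000000, with 14 regions, holds the protocadherin PCDH7 and 1 other coding gene. Windows further down the ranking hold no cadherin or protocadherin. Among these were chr14:80000001-85000000 and chr8:110000001-115000000, with 13 regions each. With 12 regions each, chr8:75000001-80000000, chr7:80000001-85000000 and chr13:90000001-95000000 also lacked one. The cadherin and protocadherin genes were named after the windows had been ranked, and no link to them was tested. A region had a median of 2 other naive-only regions within 1 Mb; 209 regions had none and 214 had 5 or more, with a highest count of 11.

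The longest naive-only region was chr18:65310001-65440000, 130 kb with no coding gene and the non-coding gene LINC01916. Those of 110 kb were chr13:64260001-64370000 with no coding gene and chr6:101480001-101590000 inside GRIK2, which encodes a kainate-type glutamate receptor subunit. At 100 kb stood chr13:69090001-69190000, chr13:85300001-85400000 and chr8:77290001-77390000, none with a coding gene. Of the 17 regions of 90 kb or more, the one in GRIK2, the one in CCSER1 (chr4:90340001-90430000) and chr5:28910001-29000000, which holds LOC124901178, touched a coding gene. One of them, chr1:188380001-188470000, lay 1000 kb from the nearest primed region, in a primed-free stretch of 6770 kb.

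Around the naive-only regions, primed regions remained scarce, and naive coverage was below that around sharing regions. In the 500 kb on each side, the median coverage was 39% naive and 3% primed for naive-only regions, against 50% naive and 89% primed for sharing regions and 36% naive and 57% primed for primed-only regions. Primed-free windows of 40 kb, taken every 10 kb, were also flanked by 3% primed sequence, with 31% naive. The primed value of the flanks is thus that of primed-free sequence in general, and the naive value is the higher of the pair. It is not high for the chromosomes as a whole, where naive regions covered 1089.16 Mb of the 2756.8 Mb analysed. Naive coverage did not fall off with distance: beyond the first 10 kb, which is empty because regions that touch would be 1 region, it stayed level out to 500 kb.

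A primed region was still often near. The median distance to the nearest one was 90 kb (quartiles 20 and 320 kb, longest 3220 kb): 131 naive-only regions (12.6%) lay directly against a primed region, 418 (40.2%) at most 50 kb away and 490 (47.1%) more than 100 kb away. The nearest other naive region was closer, at a median of 10 kb, the smallest gap the grid allows, for 679 of the regions (65.2%) exactly that. The primed-free stretch that held a naive-only region had a median length of 540 kb (quartiles 190 and 1650 kb), and 353 regions (33.9%) lay in stretches of 1 Mb or more. Only 16 filled their stretch from end to end. Like primed-free sequence at large, naive-only regions were interior to the chromosomes. Within 2 Mb of an end lay 3 of them (0.288%) and 0.429% of primed-free windows, against 3.24% of sharing regions and 4.27% of primed-only regions. One of these 3, chr2:10001-80000, holds FAM110C.

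Coding gene content was compared at an equal length of 40 kb, since longer regions touch more genes. A coding gene was touched by 43.9% of 610 naive-only regions, against 58.5% of 1936 sharing regions, 71.7% of 254 primed-only regions, 47.6% of primed-free windows and 56.1% of all windows. A coding gene start lay in 10.7% of naive-only regions of this length, against 24.3% of sharing regions, 30.4% of primed-only regions, 12.1% of primed-free windows and 19.8% of all windows. Regions that lay wholly within coding gene bodies differed less, at 30.8% of naive-only, 27.8% of sharing and 35.04% of primed-only regions and 29.5% of primed-free windows. No gene of any kind was touched by 27.5% of naive-only regions, against 20.1% of sharing regions, 12.6% of primed-only regions and 26.0% of primed-free windows. In the shares that touched a coding gene, held a coding start or touched no gene, naive-only regions therefore stood nearer to primed-free windows than to sharing or primed-only regions. The share wholly within coding bodies set them apart little. The share that held a coding start was lower in naive-only than in sharing regions of 40 kb or more on 14 of the 14 chromosomes with at least 10 naive-only regions and start data. By contrast, the share of sequence in coding bodies was lower than in sharing regions on 10 of 15 chromosomes and higher on 5. Both counts by chromosome use regions of every length from 40 kb, so length is not equal in them. The mean was 47.4 kb for naive-only and 58.7 kb for sharing regions.

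**Figure D2:**
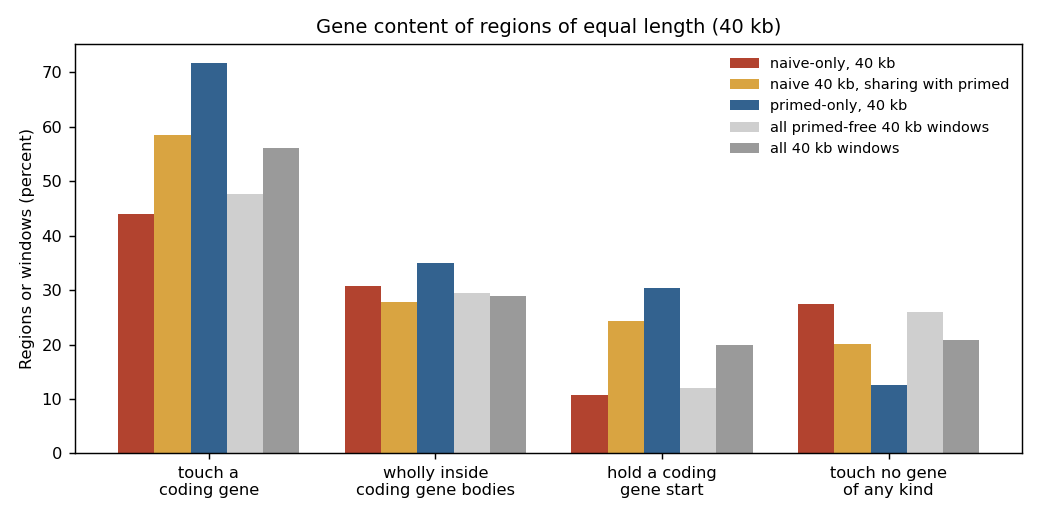
Percent of regions or windows of 40 kb (vertical axis) with each of 4 kinds of gene content, for naive-only regions, naive regions sharing sequence with the primed list, primed-only regions, all windows without a primed base and all windows. Naive-only regions stand beside the primed-free windows in each set of bars, for example 10.7% and 12.1% with a coding gene start, and primed-only regions are highest in gene starts at 30.4%.

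Farther out, naive-only regions did part from other primed-free sequence. The median distance to the nearest coding gene start was 284 kb (quartiles 58.5 and 710 kb) for naive-only regions, against 69.3 kb for sharing regions, 35.2 kb for primed-only regions and 128 kb for primed-free windows. More than 1 Mb from any coding start lay 145 naive-only regions (15.1%), against 7.15% of primed-free windows. The distance was longer than in primed-free windows on 13 of 14 chromosomes; on chromosome 1 it was shorter, at 57.5 kb against 83.5 kb. On chromosome 4 it was 428 kb against 167 kb, and on chromosome 13 553 kb against 337 kb. The order was the same in primed-free stretches of every length class: 130 kb for naive-only regions against 56.6 kb for windows in stretches of 40 to 100 kb, 315 kb against 111 kb at 200 to 500 kb, and 321 kb against 201 kb at 1 Mb or more. Coding gene bodies made up a median of 24.8% of the flanks of naive-only regions, against 39.7% of those of primed-free windows, and less on 14 of 15 chromosomes, with chromosome 10 the exception (55.8% against 50%). Windows overlap each other and include the naive-only regions, and neighbouring regions share flanks, so these are descriptions with no test.

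The naive-only regions touched 391 of the 18973 coding genes analysed, or 2.06%. As many as 599 regions touched none, 391 touched 1, 47 touched 2, 3 touched 3 and 1 touched 4. The genes touched were long, with a median of 180.7 kb against 24.8 kb for all coding genes. The share touched was 0.452% of genes under 20 kb, 4.07% at 100 to 200 kb and 28.7% (87 of 303) at 500 kb or more. A long gene offers more room to be touched. Counted per base, naive-only sequence made up 0.384% of the sequence of genes under 20 kb, 1.22% at 100 to 200 kb and 3.03% at 500 kb or more. A typical touched gene was covered in part: the median share of the body in naive-only regions was 21.0%, 79 genes had 50% or more, and 32 lay wholly inside. No primed base lay anywhere in the body of 190 of the 391 genes (48.6%), while 201 also held primed sequence elsewhere. Of all 18973 coding genes, 15422 held primed sequence. Every touched gene holds primed-free sequence by the rule, so the 2 counts are not alike.

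The genes with the most naive-only sequence were very long, and several encode surface proteins of nerve cells. A ranking by total naive-only sequence favours long genes, so their length describes the ranking. Whether such proteins are more frequent here than among other genes of this length was not tested. SGCZ on chromosome 8 encodes zeta-sarcoglycan, a protein of the membrane complex that links muscle fibres to their surroundings. It held 9 naive-only regions over 428 kb, 37.1% of its body; in total 23 naive regions covered 56.2% of it and 1 primed region covered 0.867%. PTPRD on chromosome 9, a receptor phosphatase that acts in synapse formation, held 8 over 380.0 kb, with 47.2% naive and 1.87% primed coverage. CDH18 on chromosome 5, a type II cadherin, held 5 over 240.0 kb, 21.7% of its body, with 57.6% naive and 4.41% primed coverage. PCDH9 on chromosome 13, a protocadherin, held 5 over 227 kb, 24.5% of its body, with 56.9% naive and 2.16% primed coverage. In each of these 4 genes naive regions were spread along the body and primed regions were few. ROBO1 on chromosome 3, a receptor for the guidance protein Slit, held 4 over 220.0 kb and had more primed regions, 12, with 11.1% primed coverage. CNTNAP2 on chromosome 7, a neurexin-related protein of nerve fibres, held 5 over 220.0 kb, 9.55% of a body with 33.6% naive and 1.30% primed coverage. CCSER1 (195 kb in 4 regions), the glypican genes GPC6 (180.0 kb in 4) and GPC5 (160.0 kb in 4), CNTN5, which encodes a contactin of nerve cell surfaces (170.0 kb in 3), and GRIK2 (160.0 kb in 2) followed, and GPC5 held no primed base.

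**Figure D3:**
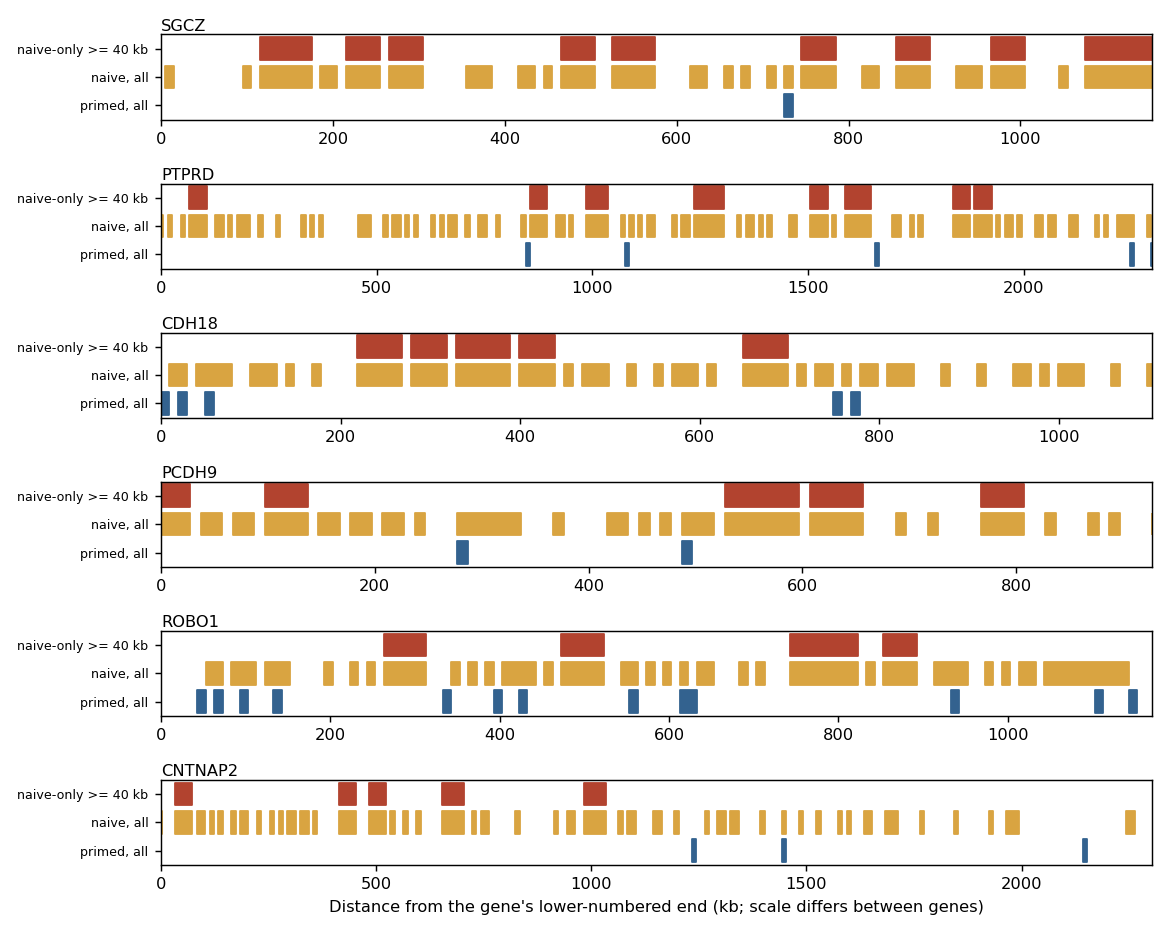
Maps of the 6 coding genes with the most naive-only sequence, by distance in kb from the gene's lower-numbered end, with naive-only regions of 40 kb or more, all naive regions and all primed regions as bars on 3 lines. SGCZ holds 9 naive-only regions and 1 primed region, and ROBO1 holds 4 and 12.

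Gene groups differed in how many of their members were touched. Because a gene in primed-covered sequence could not be touched, each group with touched genes is also given by the share of its primed-free gene body that lay in naive-only regions, called its share below. This was 3.61% over all coding genes. Long genes are given where a group has several, and 185 of 1340 coding genes of 200 kb or more (13.8%) were touched. The groups were drawn up with earlier results of these data known, so no group was tested.

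Cadherins and protocadherins, the calcium-dependent adhesion proteins, had the highest share of the 18 groups, 17.6%. Of 105, 12 were touched, 7 of them among the 16 of 200 kb or more. PCDH18 was covered over 92.0% of its body, CDH19 over 77.7%, CDH7 over 49.8% and CDH9 over 43.0%; the first, second and last of these held no primed base. These 4 lie on chromosomes 4, 18, 18 and 5, and CDH19 and CDH7 are near neighbours that share the fullest 5 Mb window. Axon guidance genes had a share of 13.7% and 11 of 66 touched, 10 of them among 22 long ones. Their leading members were the ephrin receptors EPHA7 (50.1% of the body) and EPHA5 (25.6%) and the secreted semaphorins SEMA3D (39.3%) and SEMA3A (22.3%), with no primed base in either ephrin receptor gene.

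Contactins, neurexins and other synaptic adhesion genes had 13 of 59 touched, all among the 32 of 200 kb or more, and 7.13% of their primed-free body in naive-only regions. PTPRD (16.5% of its body), NEGR1 (13.5%), CNTN5 (12.7%) and ADGRL3 (11.4%) led this group. Glutamate receptors, the receptors for the main excitatory transmitter, had 7 of 25 touched, 6 of them among 15 long ones, and a share of 6.89%. Among them were the kainate receptor gene GRIK2 (23.7% of the body), the NMDA receptor gene GRIN3A (23.6%), the metabotropic receptor gene GRM3 (18.1%) and the AMPA receptor gene GRIA4 (10.7%). GABA and glycine receptors, which carry inhibition, had 0 of 21 touched, with 0 of 5 long ones, and only 0.956 Mb of primed-free body.

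Ion channels and transporters stood near or below the value for all coding genes. Potassium channel genes had 4 of 93 touched, 2 of them among 19 long ones, and a share of 4.18%. The 4 were KCNJ3 (43.8% of the body), KCNC2 (35.3%), KCND2 (18.9%) and KCNH7 (10.7%), each without a primed base. Voltage-gated sodium and calcium channel genes had 1 of 39, CACNA2D1, an auxiliary calcium channel subunit, and a share of 3.97%. Of the 11 long genes of this group, CACNA2D1 was the only one touched. Solute carriers had 6 of 377, with 0 of 22 long ones, and a share of 1.85%. SLC17A4 lay wholly inside a region, SLC36A4, an amino acid transporter gene, was covered over 89.2% of its body, SLC17A1 over 64.6% and SLC1A7, a glutamate transporter gene, over 59.2%.

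Among 210 homeobox, SOX, T-box, PAX, GATA and forkhead regulators, 3 were touched, all among the 9 long ones: FOXP2 (13.2% of the body), SOX6 (10.4%) and SOX5 (3.87%). The share of these regulators was 5.99%, above that of all coding genes. The ZNF zinc finger genes had 2 of 497, ZNF804A and ZNF804B, both among 11 long ones, and a share of 3.24%. The olfactory receptors had 1 of 386, OR8D2, of whose body 0.197 kb was reached, and a share of 0.0929%. Cytosolic ribosomal proteins (81 genes), replication-dependent histones (69) and the PRC2, PRC1 and LINE1 silencing factors (31) had 0 touched. Their primed-free bodies came to 0.108, 0.0131 and 0.382 Mb. Whether this bears on the counts of 0 was not tested. Among genes that mark pluripotent states, none of 25 naive-state genes, 9 shared pluripotency genes or 23 single-copy 8-cell genes was reached, with 0.0801, 0.0175 and 0.0275 Mb of primed-free body. Of 21 primed-state genes, 1 was touched, PTPRZ1, a receptor phosphatase gene with 26.5% of its body in a naive-only region and 3.62% in primed regions. Through this 1 gene, the primed-state genes had 4.76% of genes touched and a share of 15.8%, second to the cadherins, of a primed-free body of 0.316 Mb.

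**Figure D4:**
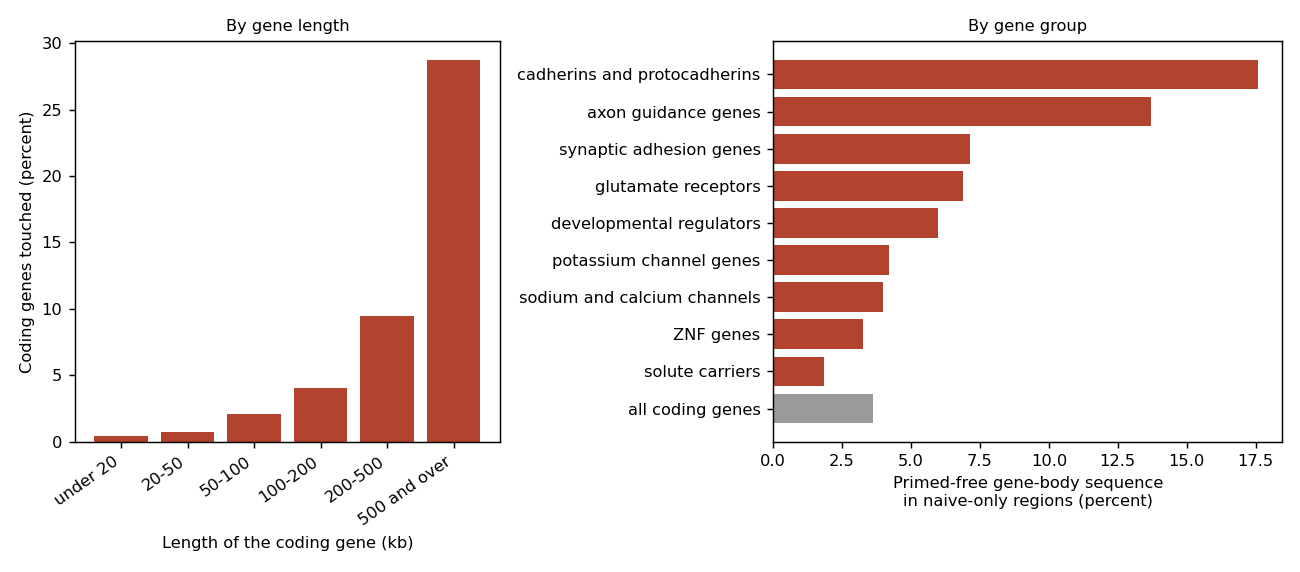
Left, percent of coding genes touched by a naive-only region (vertical axis) by gene length in kb. Right, percent of the primed-free gene-body sequence of each group that lay in naive-only regions, above all coding genes (grey). Drawn are groups with at least 2 Mb of primed-free gene body. Groups with less, among them olfactory receptors (0.212 Mb) and primed-state genes (0.316 Mb), are not drawn. The touched share climbs to 28.7% at 500 kb and over, and cadherins and protocadherins lead the groups drawn at 17.6%.

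The coding genes that lay wholly inside a naive-only region were of mixed function. They were short, as a gene must be to fit inside such a region. Beside the 5 whose promoters are printed above, those in regions of 60 kb or more were LOC124901178 at 3.66 kb, the mucin gene MUC15, TWIST1, which encodes a transcription factor of mesoderm and neural crest, and C1GALT1C1L. In regions of 50 kb, STATH (statherin, a salivary protein) lay in chr4:69970001-70020000, the defensin genes DEFB114 and DEFB113 both in chr6:49920001-49970000, and IFIT2, an interferon-induced gene, in chr10:89260001-89310000. ERVW-1, which encodes the envelope protein syncytin from an endogenous retrovirus, lay in chr7:92450001-92500000. In regions of 40 kb, LBR, which encodes the lamin B receptor of the inner nuclear membrane, lay in chr1:225390001-225430000. Also wholly inside, each in a region of its own, lay DR1, a repressor of transcription, CYP2U1, a cytochrome P450, BHMT2, a methyltransferase, and PLEKHS1.

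Among the few regions that touched several coding genes, some held overlapping ones. RIPPLY2, CYB5R4 and their read-through gene lay at chr6:83840001-83880000, and DUS4L, BCAP29 and their read-through gene at chr7:107570001-107610000. In both of these, 1 of the 3 genes counted is a joint transcript of its neighbours, so the regions hold fewer separate loci. SLC38A11 and COBLL1 were both reached by chr2:164840001-164910000.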

How the data were processed

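Nucleolar and whole-cell DNA of naive and primed H9 cells was sequenced in 12 libraries, grouped by their labels. The authors deposited 1 list of nucleolus-associated regions per state, per the labels, as start and end positions on hg38 (their unit is other: base positions, with no score or count). The submitters' processing notes name BWA, SICER and SAMtools 1.10. Settings, depth and how 3 replicates gave 1 list were not given in the sources used here, so no interval from depth can be given, and a region can be missing from a list through depth or calling. Region limits lie on a 10 kb grid, apart from 8 naive and 12 primed ends at chromosome ends. With 1 list per state, no test and no p-value was used.

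A region was naive-only where it was 40 kb or longer and shared no base with a primed region. Genes, gene starts, promoters and microRNAs came from RefSeq tables on GRCh38.p14, and a gene was touched where at least 1 base of its body lay in a region. Of the table's genes, 679 with scaffold coordinates were left out. Starts and promoters of chromosome 8 were not used here, and a promoter entry was found for 15101 of 18266 coding genes elsewhere (82.7%), for 309 of 364 touched ones and for 26 of 31 wholly inside. Empty stretches of 500 kb or more, 14 in number and 117.4 Mb in all, were taken out of the 22 chromosomes, which left 2756.8 Mb. Coverage was computed with Python 3.11.15, numpy 2.4.6 and pandas 2.3.3, drawn with matplotlib 3.10.9, and the interval code was tested on simulated data. The genome sequence was not used here, so the sequence content of whole regions was not analysed.

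The regions, the 18 gene lists and the rules were chosen with earlier results of these data known. Primed-free windows, the comparisons at equal length and by stretch length were chosen after the data had been seen. Named genes are the coding genes of the 10 longest regions, the 10 with most naive-only bases and the 10 touched by most regions, up to 20 wholly inside a region by its length, up to 4 per list by share of the body, and those of the 5 regions with most coding genes. Some items that this rule names are not reported here. The genes PCDH17, PCDH20 and PCDH7, in the fullest windows, were named beside these after their values were seen. Alternatives changed the length limit, the definition of sharing, the joining of regions, the chromosomes and the definition of touching.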

Additional observations from a re-analysis of the deposited data

How the results depend on the processing

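Of 66 values recomputed under other settings, 34 stayed within 1.5 times the value given (counts, Mb and median gene length) or within its 95% exact binomial interval (shares), and 32 did not. That interval counts regions, or 10 kb bins for the share in coding bodies, as separate trials, which they are not. It serves only as a yardstick for change and measures no spread between cultures. With 30 kb as the limit there were 2805 regions of 102.3 Mb that touched 964 coding genes, with 38.5% of their sequence in coding bodies. At 50 kb there were 431 regions of 24.98 Mb, 172 genes and 34.5%, and at 60 kb 188 regions of 12.83 Mb, 81 genes and 32.6%, with 37.8% of regions touching a gene. Counting a primed region less than 50 kb away as sharing left 658 regions of 31.61 Mb, 215 genes, 33.8% in coding bodies and 38.9% touching a gene. Leaving out primed regions of 1 bin gave 1611 regions of 77.83 Mb, 699 genes, 39.6% and 46.9%, and moved the share on chromosomes 4 and 13 to 17.7%, against 21.1% as reported. Joining naive regions up to 10 kb apart gave 3004 regions of 183.11 Mb, 1166 genes, 46.0% touching a gene and a median touched gene of 116.6 kb. With at least 10% of the gene body required, 24.2% of regions touched a gene, and with the whole body, 2.98% did and 32 genes remained. The other settings (a primed region less than 10 kb away counted as sharing, primed regions up to 50 kb apart joined, X added) moved none of the values past these limits. No paired analysis was possible because the deposited data are 1 list per state, and no library could be left out for the same reason. Depth is unknown, so it cannot be told apart from the cell state as a source of regions present in 1 list.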

Other observations

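Non-coding genes in naive-only regions were mostly long non-coding RNA genes and pseudogenes, which are also the largest non-coding classes among all genes counted. Of 17525 long non-coding RNA genes, 379 (2.16%) were touched, beside 2.06% of coding genes, and 110 lay wholly inside. The 148 promoter windows of long non-coding RNA genes inside naive-only regions had a median GC content of 40.2%, against 49.7% in sharing regions, 55.7% in primed-only regions, 44.0% in primed-free stretches and 50% in all. TATAAA on either strand stood in 27.0% of these windows, against 15.7%, 11.8%, 21.2% and 15.05% in the same sets. Pseudogenes were touched in 164 of 14160 cases (1.16%), snoRNA genes in 5 of 1144 and tRNA genes in 0 of 425.

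Chromosome X, outside the rule, held 620 naive regions of 40 kb or more, of which 16 (2.58%) shared no base with the primed list, against 18.2% on chromosomes 1 to 22 together. They covered 0.78 Mb, the longest was 80 kb, and 3 touched a coding gene.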
